A study of Mus musculus with 4 samples.

Results

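A set of 7 genes that restrain T cells were followed in T-helper 2 (Th2) cells of the mouse, a CD4 lineage that drives type 2 immunity through its cytokines. The set was given by name as Ctla4, Btla, Tigit, Cd200, Lag3, Pdcd1 and Havcr2. Each name matched 1 gene identifier through GENCODE symbols, so all 7 were found among the 50600 genes of the count files. The libraries form 1 group of 4, and the labels number them as biological replicates 1 to 4. All came from C57BL/6NJ primary cells without a stated genotype change or added agent, and the file headers place them 72 h into a Th1 and Th2 time course, after a sort. There was no second group, so genes were compared within a library and libraries with one another.

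Inhibitory receptors are membrane proteins that dampen signals from the T cell receptor and from costimulation. CTLA-4 competes with the costimulator CD28 for CD80 and CD86, PD-1 and BTLA recruit tyrosine phosphatases, and TIGIT competes with the activating receptor CD226 for PVR. LAG-3 binds MHC class II, TIM-3 (the product of Havcr2) binds galectin-9 among others and was first described in mouse on Th1 cells, and CD200 is a ligand whose receptor sits mainly on myeloid cells. Activated T cells raise several of these genes, and sustained signalling keeps them high.

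The total gene count was 1274431 to 1857433 per library, so a count of 0 allows up to 1.62 to 2.35 CPM (the count scaled by the library total), taking 3 counts as the limit. This limit and all intervals below reflect counting error alone. The files count fragments on 1 strand, and genes whose exons overlap no exon of a gene on the other strand made up 83.8% of the annotation but held 8.54% to 20.1% of the counts. All 7 genes are of that kind, and no gene on the other strand lies within their bounds. The nearest one lies 2526 bp (Cd200) to 65608 bp (Btla) away. Fragments from the other strand of their exons were therefore counted for no gene, and their TPM (the count scaled by exon length and by the library total) measures counts on the annotated strand and was not taken as mRNA levels. In such bulk libraries fewer cells of a type and less RNA per cell cannot be told apart.

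Of the T cell and Th2 markers, 9 of 9 had counts, with sums of 618, 367, 223 and 747 in replicates 1 to 4. The 6 of these markers with no opposite exon summed to 530, 318, 168 and 625. Of all 50600 genes, 16612 had a count in any library. The CD8 and natural killer markers summed to 0, 2, 0 and 0 counts, with Cd8a, Cd8b1, Ncr1 and Klrb1c at 0 throughout. The B cell markers had 3 of 5 members with a count and sums of 50, 56, 21 and 3, with Ms4a1 at 0. Nearly all were from Cd79a (35, 41, 9 and 2) and Cd22 (14, 15, 12 and 1), which has an exon opposite Gm29439. The dendritic and myeloid markers had 4 of 7 members with a count and sums of 779, 846, 700 and 547, mostly Csf1r with 716, 827, 661 and 542, whose exons overlap Hmgxb3 on the other strand. The 6 with no opposite exon summed to 63, 19, 39 and 5, with Itgax, Lyz2 and Adgre1 at 0. Nearly all of these counts came from Cst3 (47, 8, 6 and 4) and Cd68 (16, 11, 33 and 0). The regulatory T cell markers had 1 of 2 members with a count and sums of 411 to 667, all from Foxp3, whose exons overlap Ccdc22 on the other strand. The follicular helper markers summed to 7, 8, 9 and 8. B cells and regulatory and follicular helper T cells are known to express several of the 7 genes, and their part in the results was not tested.

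The promoters of the 4 most counted genes (Ctla4, Btla, Tigit and Cd200) are printed. Whether their sequence bears on how these genes varied between libraries was not tested. RefSeq promoter windows of GRCm38.p6, from 250 bases before to 50 bases after the annotated start, matched 6 of the 7 genes, all but Lag3. Capitals mark matches on either strand to the AP-1 motif TGANTCA, the NFAT core GGAAA, the GATA motif AGATAA and the TATA box TATAAA. The windows are chr1:60908775-60909074 (plus strand), chr16:45224087-45224386 (plus strand), chr16:43664135-43664434 (minus strand) and chr16:45409004-45409303 (minus strand), each 5′ to 3′ on the strand of its gene.
Ctla4: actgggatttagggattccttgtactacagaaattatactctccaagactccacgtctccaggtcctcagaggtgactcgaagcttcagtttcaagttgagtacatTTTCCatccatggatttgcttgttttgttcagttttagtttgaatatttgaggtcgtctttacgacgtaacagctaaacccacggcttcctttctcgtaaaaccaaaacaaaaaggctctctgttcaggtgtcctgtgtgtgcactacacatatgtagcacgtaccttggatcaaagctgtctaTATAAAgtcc
Btla: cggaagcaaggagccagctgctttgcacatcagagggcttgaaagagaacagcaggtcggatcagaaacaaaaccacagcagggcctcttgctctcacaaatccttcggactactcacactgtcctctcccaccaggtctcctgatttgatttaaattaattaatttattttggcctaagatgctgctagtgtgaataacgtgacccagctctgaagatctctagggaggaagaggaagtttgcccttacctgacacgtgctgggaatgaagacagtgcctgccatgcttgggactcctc
Tigit: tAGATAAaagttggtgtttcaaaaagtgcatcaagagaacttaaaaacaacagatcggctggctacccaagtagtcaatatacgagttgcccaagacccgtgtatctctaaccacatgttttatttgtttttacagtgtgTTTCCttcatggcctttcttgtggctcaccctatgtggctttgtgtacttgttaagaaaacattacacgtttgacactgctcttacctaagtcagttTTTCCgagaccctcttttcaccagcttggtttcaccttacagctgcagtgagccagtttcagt
Cd200: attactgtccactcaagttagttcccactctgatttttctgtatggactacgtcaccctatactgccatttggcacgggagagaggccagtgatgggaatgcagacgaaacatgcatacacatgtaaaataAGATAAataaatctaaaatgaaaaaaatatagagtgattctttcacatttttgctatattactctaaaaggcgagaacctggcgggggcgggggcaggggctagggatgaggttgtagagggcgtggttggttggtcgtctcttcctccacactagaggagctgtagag

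The Ctla4 window held 1 NFAT core 144 bases before the start and a TATA box 41 bases after it. Its start lies 22025 bp inside the first bound of the gene in the count files, so the window belongs to the RefSeq start and not to the outermost exon counted. The Tigit window held 2 NFAT cores, 110 and 13 bases before the start, and a GATA motif at the far end of the window. The Cd200 window held 1 GATA motif 119 bases before the start, and the Btla window none of the 4 motifs. Over the 6 windows, the NFAT core was found in 3, the GATA motif in 2, and the AP-1 motif and the TATA box in 1 each. Among 32851 RefSeq promoter windows of the same length, 61.3% held the NFAT core, 11.2% the GATA motif, 7.81% the AP-1 motif and 13.6% the TATA box. A match describes the letters and not a bound site.

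Ctla4 and Btla, the genes of 2 receptors of the CD28 and immunoglobulin families, had the most counts on their own strand. Ctla4 (ENSMUSG00000026011.13, mm10 chromosome 1, 60887000 to 60915832, plus strand) had 242, 92, 93 and 374 counts in replicates 1 to 4. Scaled by exon length, these are 88.7, 29.9, 39.6 and 198 TPM, with a mean of 89.1 ± 77.0 (SD, n = 4). Replicates 1 and 4 were the high ones, and the highest was 6.62 times the lowest. Replicate 4 carries much of this mean, which was 52.8 TPM without it. Btla (ENSMUSG00000052013.14, chromosome 16, 45224315 to 45252895, plus strand) had 199, 208, 108 and 241 counts, or 52.2, 48.4, 32.9 and 91.3 TPM, with a mean of 56.2 ± 24.8 TPM (SD, n = 4). Its highest library was 2.77 times its lowest, and replicates 1 and 2 were nearly level.

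Tigit (ENSMUSG00000071552.4, chromosome 16, 43648861 to 43664184, minus strand), a receptor of the poliovirus receptor family, had few counts over a short exon length of 963 bp. The counts were 51, 16, 35 and 19 in replicates 1 to 4, and the levels 45.3, 12.6, 36.1 and 24.3 TPM, with a mean of 29.6 ± 14.2 TPM (SD, n = 4). Unlike the counts of Ctla4, those of Tigit were highest in replicates 1 and 3. Cd200 (ENSMUSG00000022661.14, chromosome 16, 45382135 to 45409053, minus strand), the ligand of the set, had 90, 36, 23 and 132 counts. These are 23.2, 8.22, 6.88 and 49.02 TPM, with a mean of 21.8 ± 19.6 TPM (SD, n = 4), and 12.7 TPM without replicate 4. Replicates 1 and 4 were again the high libraries.

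LAG-3, PD-1 and TIM-3 are used with CTLA-4 and TIGIT to describe exhausted T cells. Their genes, Lag3, Pdcd1 and Havcr2, had the lowest mean TPM of the 7. Lag3 (ENSMUSG00000030124.2, chromosome 6, 124904361 to 124911705, minus strand) had 38, 6, 11 and 19 counts, or 15.4, 2.16, 5.18 and 11.1 TPM, with a mean of 8.46 ± 5.93 TPM (SD, n = 4). Pdcd1 (ENSMUSG00000026285.7, chromosome 1, 94038305 to 94052553, minus strand) had 17, 7, 1 and 7 counts, or 7.53, 2.75, 0.514 and 4.47 TPM, with a mean of 3.82 ± 2.96 TPM (SD, n = 4). Both were highest in replicate 1. Counting error alone spans 9.90 to 27.2 counts around the 17 of replicate 1 and 0.0253 to 5.57 around the 1 of replicate 3 (exact Poisson 95% interval). Havcr2 (ENSMUSG00000020399.14, chromosome 11, 46454935 to 46481255, plus strand) had 1 count in replicate 2 and 0 in the others. It was not detectable above the limit that a count of 0 allows, and this does not show that its RNA was absent. Even Cd3e, which every T cell needs for its receptor, had only 17 to 32 counts on its own strand. Unlike Havcr2, Cd3e has an exon opposite another gene, Gm48719.

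**Figure D1:**
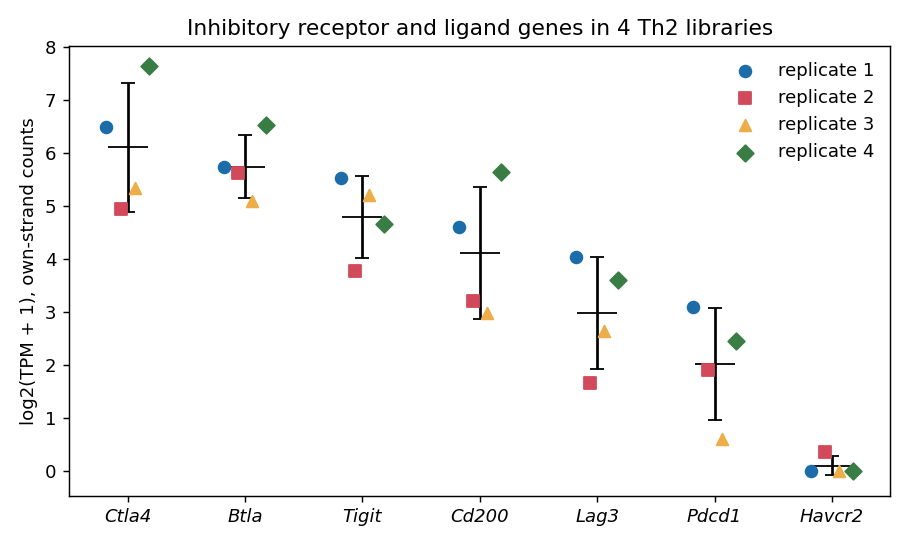
Level of each gene in log2(TPM + 1) by library, with the mean as a bar and the SD over 4 libraries as whiskers. The genes run from Ctla4 at a mean of 89.1 TPM to Havcr2 at 0.0696 TPM, and the ranges of neighbouring genes overlap from Ctla4 down to Pdcd1.

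As a set, 6 of the 7 genes had a mean TPM of at least 1, against 16.3% of all genes with no opposite exon and 23.1% of all genes. In every one of the 4 libraries, 5 of the 7 had a TPM of 1 or more, against 6.39% of genes with no opposite exon and 12.5% of all genes. The 2 that missed were Havcr2 and Pdcd1. The set median was 15.6 ± 9.38 TPM (SD over 4 libraries), while the median of the 10745 genes with no opposite exon and a count was 1.35 ± 0.805 TPM. Among those 10745 genes Ctla4 lay above 98.6% by mean TPM, Btla above 97.7%, Tigit above 95.2%, Cd200 above 93.5%, Lag3 above 83.1%, Pdcd1 above 68.5% and Havcr2 above 3.05%. The genes were chosen with earlier results of these libraries known, so these places describe the set and test nothing.

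The order of the genes by mean TPM was Ctla4, Btla, Tigit, Cd200, Lag3, Pdcd1 and Havcr2, and several neighbours in it did not differ beyond their spread. On the log2(TPM + 1) scale, Ctla4 minus Btla was 0.36 ± 0.77 (SD, n = 4) and was below 0 in replicate 2, where Btla led. Btla minus Tigit was 0.95 ± 1.06 and below 0 in replicate 3, where Tigit stood second. Tigit minus Cd200 was 0.69 ± 1.32 and below 0 in replicate 4, and Lag3 minus Pdcd1 was 0.97 ± 0.94 and below 0 in replicate 2. Cd200 minus Lag3 was 1.13 ± 0.81 and Pdcd1 minus Havcr2 was 1.92 ± 1.09, both above 0 in 4 of 4 libraries. In the libraries where Havcr2 was at 0, no negative difference was possible.

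Genes further apart in the order kept it in every library. Of the 21 pairs, 17 had the same sign in 4 of 4 libraries, and the 4 of mixed sign were all neighbours. The order came from the mean over these same libraries and the pairs share genes. This number therefore describes the libraries and is no independent test of the order. The 17 include every pair with Havcr2, whose sign was nearly fixed because Havcr2 had 1 count in all. Ctla4 exceeded Cd200 by 2.00 ± 0.26 on the log2(TPM + 1) scale, with differences of 1.89, 1.75, 2.37 and 1.99 in replicates 1 to 4. That SD was the smallest of the 21 pairs, which singled out this pair after its values were seen. The 2 genes kept nearly the same ratio while each varied several-fold. Ctla4 exceeded Lag3 by 3.13 ± 0.70 and Pdcd1 by 4.09 ± 1.03. Btla exceeded Cd200 by 1.64 ± 0.74, Lag3 by 2.76 ± 0.95 and Pdcd1 by 3.73 ± 0.79. For each pair of constant sign the exact two-sided sign-flip test gave p = 0.13, the smallest that 4 libraries allow, and an adjusted p of 0.154 over the 21 pairs. The neighbours of mixed sign gave exact p-values of 0.25 to 0.50. This test cannot reach 0.05 with 4 libraries, and the sizes and SDs carry the comparison.

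Which gene took the largest part of the summed counts of the set changed between libraries. The 7 genes together had 637, 366, 271 and 792 counts in replicates 1 to 4. Btla held 56.8% of them in replicate 2 (95% Wilson interval 51.7 to 61.8), against 31.2% (27.8 to 34.9) in replicate 1, 39.9% (34.2 to 45.8) in replicate 3 and 30.4% (27.3 to 33.7) in replicate 4. Ctla4 held 47.2% (43.8 to 50.7) in replicate 4 and 25.1% (20.97 to 29.8) in replicate 2, with 38.0% (34.3 to 41.8) and 34.3% (28.9 to 40.2) in replicates 1 and 3. The interval of Btla in replicate 2 overlaps none of its other 3. Tigit held 12.9% (9.43 to 17.4) in replicate 3 and 2.40% (1.54 to 3.72) in replicate 4.

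**Figure D2:**
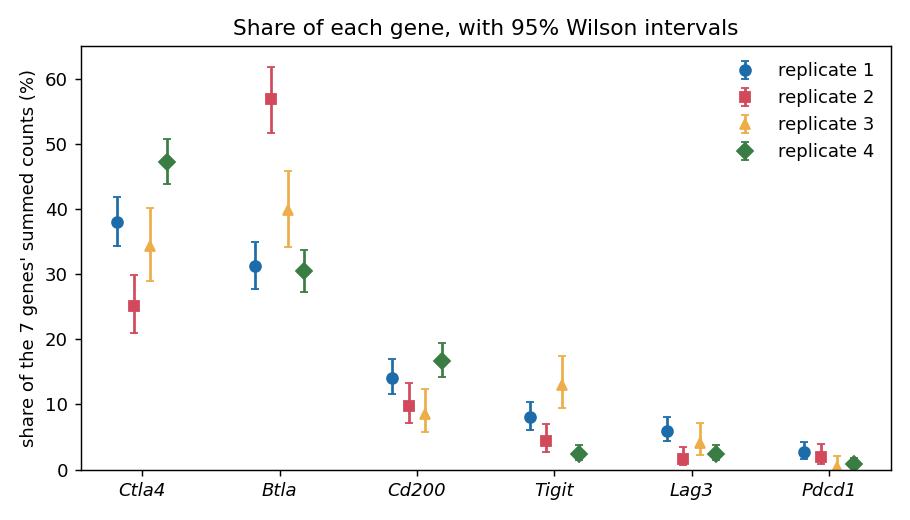
Share of each gene in the summed counts of the 7 genes, in percent, for each library, with 95% Wilson intervals as whiskers; Havcr2, with 1 count in all, is not drawn. Btla leads in replicate 2 at 56.8% and Ctla4 in replicate 4 at 47.2%.

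All 5 of the genes whose mean count reached 10 (Ctla4, Btla, Cd200, Tigit and Lag3) varied between libraries by more than Poisson counting allows (chi-square test with Benjamini-Hochberg adjustment). This is no particular property of theirs, since 88.2% of the 7752 genes tested did so. The adjusted p was 8.5e-57 for Ctla4, 2.9e-21 for Cd200, 5.1e-09 for Btla, 0.000217 for Lag3 and 0.000403 for Tigit. Without the minimum count, Pdcd1 was also past the threshold with an adjusted p of 0.0243, and Havcr2 was not, at 0.385. The biological coefficient of variation that edgeR gave was 0.373 for Btla, 0.431 for Ctla4, 0.515 for Cd200, 0.602 for Tigit and 0.715 for Lag3, against 0.575 as the common value of all tested genes.

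When each library was set against the other 3 with edgeR's quasi-likelihood test, 0 of the 5 tested genes passed an adjusted p of 0.05 in any of the 4 comparisons. The shares of all tested genes that passed were 0%, 0.0129%, 0.0387% and 0% for replicates 1 to 4, so the test called almost nothing anywhere, and DESeq2 likewise called 0 of the 5. At an unadjusted p under 0.05, edgeR counted 0, 0, 0 and 2 of the 5 genes, beside 0.426%, 2.79%, 9.37% and 8.81% of all tested genes. The 2 were Ctla4 and Cd200 in replicate 4. There Ctla4 stood 1.55 (log2, SE 0.51, adjusted p = 0.565) and Cd200 1.59 (log2, SE 0.67, adjusted p = 0.565) above the other 3 libraries in edgeR's test. Without replicate 1, which was the other high library, the same differences were 1.98 and 2.15 (log2), beside 14.9% of all tested genes passing. Without replicate 2 they were 1.33 and 1.43, and without replicate 3 they were 1.41 and 1.31 (log2). Likewise without replicate 2, replicate 3 stood below replicates 1 and 4 by -1.38 for Ctla4 and -1.92 for Cd200 (log2). This was beside 9.21% of all tested genes passing. Without replicate 1 the differences of replicate 3 were -1.10 and -1.64, and without replicate 4 they were -0.35 and -0.96 (log2). Without replicate 3, replicate 2 stood below by -1.64 for Ctla4 and -1.51 for Cd200 (log2), beside 4.88% of all tested genes passing. Without replicate 1 the differences of replicate 2 were -1.52 and -1.27, and without replicate 4 they were -0.81 and -0.56 (log2). Each of these fits sets 1 library against 2. The largest differences came after removing a library already seen to lie on the same side, so these fits decide nothing about Ctla4 or Cd200.

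As a class, genes with no opposite exon differed between the libraries in the same direction as Ctla4 and Cd200. Genes with no opposite exon held 16.4%, 8.54%, 9.14% and 20.1% of the counts in replicates 1 to 4, and the median such gene averaging 10 or more counts deviated from its own mean by 0.54, -0.61, -0.62 and 0.90 on the log2(CPM + 1) scale. The median gene with an opposite exon deviated by at most 0.04 in any library. Ctla4 deviated by 0.35, -1.09, -0.72 and 1.46, and Cd200 by 0.48, -0.86, -1.13 and 1.502, the same signs as the median. Btla, with -0.05, -0.04, -0.62 and 0.71, departed from it mainly in replicates 1 and 2. Tigit, with 0.69, -0.94, 0.46 and -0.21, had the other sign in replicates 3 and 4. Lag3 deviated by 1.07, -1.33, -0.31 and 0.58, and Pdcd1 by 1.12, -0.02, -1.52 and 0.42, so both had the signs of the median but their maximum in replicate 1. What sets the shared deviation was not tested.

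**Figure D3:**
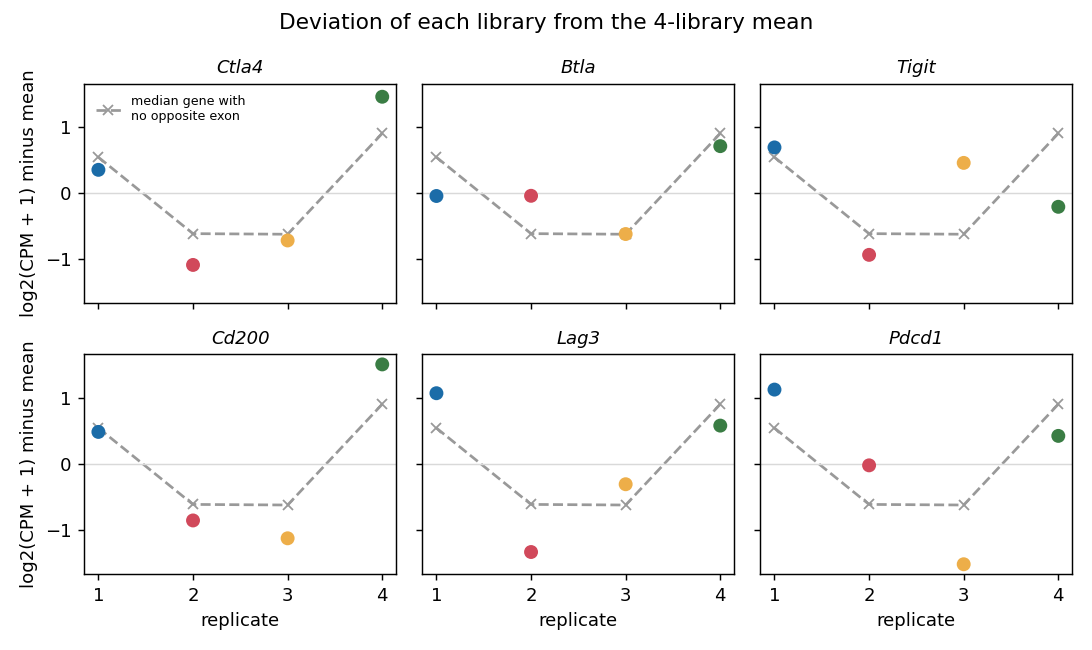
Deviation of 6 genes from their own 4-library mean in log2(CPM + 1), by replicate (points), with the median gene that has no opposite exon and averages 10 or more counts as a dashed line. Ctla4 and Cd200 follow the line and exceed it in replicate 4 (1.46 and 1.502 against 0.90), whereas Btla in replicate 2 (-0.04) and Tigit in replicate 3 (0.46) lie above it.

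Scaled against genes of their own kind, the ratio of the highest to the lowest TPM was smaller for the 6 genes with counts in all libraries, and some directions turned. As a share of all counts in genes with no opposite exon, the 7 genes together made up 0.218% (95% Wilson interval 0.202 to 0.235), 0.231% (0.208 to 0.256), 0.205% (0.182 to 0.231) and 0.309% (0.288 to 0.331) in replicates 1 to 4. Replicate 4 stood above the others, whose intervals overlap. As a share of all counts the same sums were 0.0358%, 0.0197%, 0.0187% and 0.0621%. With TPM rescaled over genes with no opposite exon, Ctla4 had 630, 328, 419 and 1249 TPM, and its highest library was 3.81 times its lowest. On that scale Btla had 371, 530, 348 and 576 TPM, a ratio of 1.65, and Tigit had 321, 138, 382 and 154 TPM, a ratio of 2.77, against 3.59 on the scale of all genes. Cd200, Lag3 and Pdcd1 had ratios of 4.25, 4.63 and 9.83 on that scale, against 7.13, 7.14 and 14.6 over all genes. Scaled to the total count of such genes (CPM over these genes alone, without the length), Btla was highest in replicate 2, with 681, 1311, 817 and 939 CPM. With edgeR fitted on genes with no opposite exon alone, replicate 4 against the other 3 gave 0.79 for Ctla4 and 0.86 for Cd200 (log2, adjusted p = 0.706 and 0.713), -0.30 for Btla and -0.41 for Lag3 (adjusted p = 0.931 and 0.948). The sign of Btla and Lag3 in replicate 4 thus depends on the scaling, since the fit over all genes gave 0.61 and 0.24. All 5 genes still varied beyond Poisson sampling in this scaling, as did 2919 of the 3827 genes tested in it, so this is no particular property of theirs. The chi-square was smaller than over all genes for Ctla4 (60.3 against 270.2), Cd200 (23.9 against 102.9) and Lag3 (8.90 against 20.4), and larger for Btla (85.5 against 43.6) and Tigit (33.6 against 19.03), with Lag3 close to the threshold at an adjusted p of 0.0410.

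For the 4 genes whose mean count was 20 or more, those of most similar pattern were taken from 789 genes with 50 or more counts on average and no opposite exon, by the root mean square difference of log2(CPM + 1) deviations over the 4 libraries. For Cd200 these were Il13, a cytokine gene of Th2 cells, at 0.0438, and Caprin1, an RNA-binding protein gene, at 0.0489. For Ctla4 they were Fam107b at 0.0537 and the endoplasmic reticulum chaperone gene Hspa5 at 0.0848. The genes nearest to Btla were Rnf157 at 0.104 and the origin recognition gene Orc3 at 0.128, and those nearest to Tigit were the splicing factor gene U2af2 at 0.177 and the chromatin reader gene Brd3 at 0.201. Within a difference of 0.25 lay 10.01% of the 789 genes for Cd200 and 7.35% for Ctla4, but 1.52% for Btla and 0.380% for Tigit. With 4 libraries such likeness is a description only.

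The genes around the receptors in the genome gave further values. Ctla4 lies between Cd28 and Icos on the plus strand of chromosome 1, 113640 bp from Cd28 and 62094 bp from Icos. Cd28, the costimulator that shares CD80 and CD86 with CTLA-4, had 59, 17, 4 and 87 counts in replicates 1 to 4 and 7.13 ± 7.67 TPM (SD, n = 4), with 3.66 TPM without replicate 4. Icos, a costimulator of the same family, had 31, 5, 0 and 10 counts and 3.11 ± 3.43 TPM, with 1.57 TPM without replicate 1. Both were below Ctla4 in every library. Lag3 lies 16139 bp from Cd4 on the minus strand of chromosome 6, and its counts of 38, 6, 11 and 19 in replicates 1 to 4 stand against 148, 78, 22 and 165 for Cd4, a structural relative. Btla and Cd200 lie 129239 bp apart on opposite strands of chromosome 16, and each had its highest count in replicate 4. Inside the bounds of Ctla4, the same-strand pseudogene Rpl18-ps1 had 0 counts.

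The ligands of the 7 genes ranged from 0 counts to a mean of 15.3 TPM on their own strand. Of 14 ligands and binding partners, 7 (50%) had a mean TPM of at least 1 and 4 (28.6%) had it in all 4 libraries. The shares of all genes were 23.1% and 12.5%. The list median was 0.868 ± 1.03 TPM. The highest were the TIM-3 ligand genes Hmgb1 at 15.3 ± 11.5 TPM (SD, n = 4), which has an exon opposite Uspl1 and had 10.2 TPM without replicate 4, and Lgals9 at 12.2 ± 8.59 TPM, followed by the PD-1 ligand gene Pdcd1lg2 at 5.97 ± 4.12 TPM. Lgals9 had 50, 9, 14 and 33 counts in replicates 1 to 4 while its receptor gene Havcr2 had 1 in all. Cd274, the gene of the other PD-1 ligand, had 25, 9, 4 and 18 counts. Of the CTLA-4 ligands, Cd80 had 4 counts in replicate 4 and Cd86 had 2 in replicate 2. The BTLA partner Tnfrsf14 (HVEM) had 3 counts in replicate 1, and Nectin2, Nectin3, Fgl1 and Clec4g had 0 in all 4 libraries. Cd200r1, the receptor of CD200, had 9, 0, 5 and 0 counts.

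Receptors outside the set were mostly lower than Ctla4 and Btla. Of 12 further inhibitory receptors, 6 (50%) had a mean TPM of at least 1 and 3 (25%) had it in all 4 libraries, against 23.1% and 12.5% of all genes. The list median was 0.611 ± 0.472 TPM. Cd5, a scavenger-family receptor that tunes T cell receptor signals, was the highest at 36.8 ± 26.8 TPM (SD, n = 4). Vsir, the gene of VISTA, had 4.52 ± 1.93 TPM, and its counts of 15, 34, 35 and 14 in replicates 1 to 4 ran against those of Ctla4. Cd160, which shares the ligand HVEM with BTLA, had 4.11 ± 2.38 TPM but has an exon opposite Pdzk1. Cd244a, Lair1, Klrg1 and Ceacam1 had 0 counts in all 4 libraries. The activating counterparts Cd28, Icos and Cd226 had a list median of 5.35 ± 5.89 TPM, and 3 of 3 had a mean TPM of at least 1, but 0 of 3 had it in all 4. Cd226, which competes with TIGIT for PVR, had 2, 1, 0 and 24 counts, or 3.40 ± 6.11 TPM, and 0.349 TPM without replicate 4.

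Of 16 signalling genes below these receptors, 14 (87.5%) had a mean TPM of at least 1 and 12 (75%) had it in all 4 libraries. The shares of all genes were 23.1% and 12.5%. The list median was 4.33 ± 2.36 TPM. Dok2, an adaptor that restrains T cell receptor signals, had 87, 77, 63 and 61 counts and 23.3 ± 2.91 TPM (SD, n = 4), a smaller SD than that of any of the 6 genes of the set with counts in all libraries. Ptpn6, the gene of the phosphatase SHP-1 that inhibitory receptors recruit, had 20.3 ± 11.1 TPM but has an exon opposite Gm20531, and Ptpn11, the gene of SHP-2, had 1.96 ± 1.23 TPM. Csk, a kinase that inhibits Lck, had 9.51 ± 7.10 TPM. Bag6, whose product binds the tail of TIM-3, had 7.44 ± 2.70 TPM. Of 8 trafficking and shedding genes, 7 (87.5%) had a mean TPM of at least 1 and 4 (50%) had it in all 4 libraries, beside the same shares of all genes. The list median was 5.12 ± 2.63 TPM. Adam17, a protease that cleaves LAG-3, led with 34.7 ± 7.78 TPM but has an exon opposite Iah1, followed by the adaptor gene Trat1 at 22.7 ± 24.2 TPM (11.04 without replicate 4) and Ap2m1, a subunit of the clathrin adaptor that internalizes CTLA-4, at 7.79 ± 3.89 TPM. Lrba, which protects CTLA-4 from degradation, had 2.29 ± 1.82 TPM (1.39 without replicate 4) and has an exon opposite Mab21l2.

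Of 16 transcription factor genes known to act on inhibitory receptors, 11 (68.75%) had a mean TPM of at least 1. In all 4 libraries, 5 (31.25%) had it. The shares of all genes were 23.1% and 12.5%, and the list median was 1.46 ± 0.852 TPM. Irf4 had 157 ± 27.0 TPM (SD, n = 4), Foxp3 121 ± 17.3 TPM and Batf 87.5 ± 38.0 TPM. The Foxp3 value cannot be assigned to it alone because of the exon it shares with Ccdc22. Irf4 was steadier than Ctla4, with 852, 764, 895 and 617 counts in replicates 1 to 4. Tox, a regulator of exhausted T cells that has an exon opposite Gm11802, and Prdm1, the gene of Blimp-1, had 0 counts in all 4 libraries, and Tox2 had 3 in replicate 2. Nr4a1, Nr4a2 and Nr4a3, factors induced by T cell receptor signals, had 3.44 ± 2.50, 1.14 ± 0.813 and 1.01 ± 0.950 TPM, the last 0.633 without replicate 1. The counts of 0 for Tox and Prdm1 do not show that the RNA was absent.

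**Figure D4:**
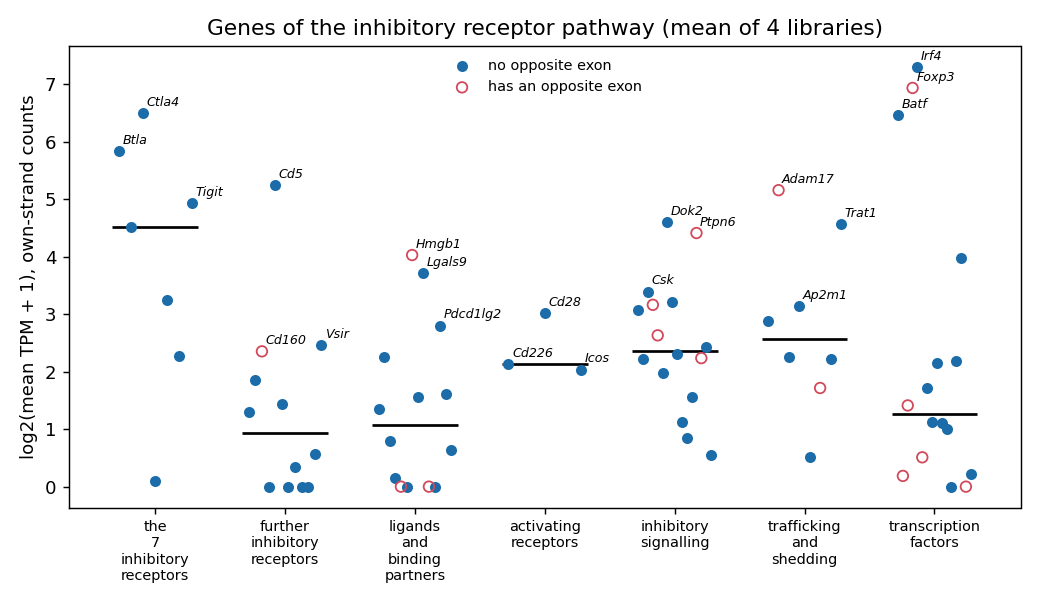
Mean level of each pathway gene over 4 libraries in log2(mean TPM + 1), by list, with the median of the plotted genes as a line; open circles have an exon opposite another gene. The 7 inhibitory receptor and ligand genes have the highest line, and Irf4 at 157 TPM is the highest gene.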

How the data were processed

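Gene-level counts were analysed for 4 Th2 libraries of 1 group. The values are the authors' deposited raw fragment counts, made per the file headers with featureCounts 1.4.6-p4 from STAR alignments to mm10 (strand option 1, GENCODE M13, both mates mapped). The sources used here do not give the kit's strand orientation. Symbols came from GENCODE M21 for 50376 of 50600 identifiers, and opposite exons (at least 1 bp) from bedtools 2.31.1. TPM, FPKM and CPM were computed from the counts. Promoter windows are RefSeq's.

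Pairs of genes were compared with an exact sign-flip test, and libraries with edgeR 4.0.16 over genes averaging 10 or more counts and, as the alternative, DESeq2 1.42.0 (R 4.3.3, Python 3.11.15, Benjamini-Hochberg at 0.05). SEs of edgeR differences were derived from its F statistic. Scripts were tested on simulated counts. The labels name biological replicates, and all p-values concern these 4 libraries alone. Chi-square p-values measure departure from Poisson counting and also depend on the count, so they do not rank genes by spread. The 7 genes, lists and motifs were chosen with earlier results of these data known. Named genes were the 7, the 3 of highest mean TPM in each list, and the 2 nearest in pattern. Neighbouring genes and other list genes named were chosen after their values were seen. The value of 1 marker gene is not reported here. No gene opposite the 7 exists in the annotation, so the planned comparison with such genes gave no value. Alternatives were other pseudocounts, scalings, filters and libraries left out.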

Additional observations from a re-analysis of the deposited data

Results flagged for a closer look

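Of 39 sets of 4 library values examined, 2 had a library far from the others, measured as the gap to the nearest library divided by the whole range, at the 95% level of Dixon's test. About 1 set in 20 does so by chance. Cd226 had 12.6 TPM in replicate 4 against 0.725, 0.322 and 0 TPM in replicates 1 to 3, a ratio of 0.942. Havcr2 had a ratio of 1, which rests on its 1 count in replicate 2.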

How the results depend on the processing

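The order of neighbouring genes kept its direction under a pseudocount of 0.1, FPKM and each library left out. The pseudocount and FPKM cannot change which gene of a pair is higher within a library. Of 262 alternative values, 225 kept their direction and side of the threshold or moved by less than the spread. The 225 include numbers of genes called that stayed at 0. TPM rescaled over genes with no opposite exon gave 456 for Btla, 657 for Ctla4, 29.3 for Pdcd1, 64.5 for Lag3, 248.7 for Tigit, 0.763 for Havcr2 and 159 for Cd200, larger because fewer counts enter the total. Leaving out 1 library gave 2.58 to 4.92 TPM for Pdcd1, 6.15 to 10.6 for Lag3 and 0 to 0.0928 for Havcr2. For replicate 4 against the other 3, genes with no opposite exon alone reversed Btla to -0.30 and Lag3 to -0.41, and with 1 library left out Lag3 ranged from -0.17 (without replicate 2) to 1.08. The number of the 7 genes called stayed at 0 for replicate 1 and ranged from 0 to 1, 0 to 2 and 0 to 2 for replicates 2 to 4 with 1 library left out. All genes called then ranged from 0 to 169, 1 to 400, 2 to 741 and 3 to 1083. Median-of-ratios factors or no filter gave 3 genes for replicates 2 and 4, and for replicate 3 DESeq2 or genes with no opposite exon gave 0, against 1, 0 and 3 genes for replicates 2, 4 and 3 in the design used. Spread beyond Poisson was called for 11679 of 16612 genes without a filter and for 2919 of 3827 genes with no opposite exon. A TPM minimum of 5 left 1 further inhibitory receptor, 3 ligands, 1 activating receptor, 7 signalling genes, 4 trafficking genes and 4 transcription factors. List medians with 1 library left out ranged from 0.444 to 0.814 TPM for further receptors, 0.483 to 1.16 for ligands (0.483 without replicate 1) and 2.94 to 7.13 for activating receptors (2.94 without replicate 4). The causes of these changes, apart from the smaller total, were not tested. No paired analysis was possible because there is 1 group. Pdcd1, Lag3 and Havcr2 had the lowest mean counts of the 7 genes, and what limits their counts was not tested.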
